A study of Mus musculus with 32 samples.

Results

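The small intestine of mice with a disrupted Fabp2 gene was compared with that of WT mice in all 8 RNA pools of these genotypes, 4 Fabp2KO pools and 4 WT pools, of the 16 pools of the series. Every pool was hybridized to the Affymetrix chips 430A and 430B, so that the comparison used 16 of 32 arrays. The Fabp2KO group consisted of Fabp2-/- mice and the WT group of C57BL/6J mice, all 10 weeks old, on a standard lab diet and without treatment. Each genotype had 2 male and 2 female pools, and a pool held RNA of 2 mice. Per the methods, the mice were fasted littermates and the Fabp2-/- line was kept on the C57BL/6J background. The whole organ from below the stomach to before the cecum was homogenized, which mixes epithelium, lymphocytes, muscle and any attached fat or pancreas. A second pair of genotypes that differs in the same gene, Fabp2-/-;Fabp6-/- mice (Fabp26KO) and Fabp6-/- mice (Fabp6KO), supplied 8 further pools that share none with the first comparison.

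Fabp2, the intestinal fatty acid-binding protein, is an abundant cytosolic carrier of long-chain fatty acids in enterocytes. Fatty acids taken up from the gut lumen are bound by such carriers, re-esterified to triglyceride at the endoplasmic reticulum and exported in chylomicrons, or oxidized in mitochondria and peroxisomes. Fabp1, the liver-type protein, is found in the same cells, and Fabp6 is a bile acid carrier of the ileum. Fabp2 lies on chromosome 3, so the calls over all genes were counted apart for this chromosome. The gene lists below hold genes of every chromosome. Their called members on chromosome 3, beside Fabp2, were Adh6a, Hsd3b3, Hsd3b2, Gclm, Gbp2, Reg4, Fabp4, Abcd3 and Serpini2.

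The deposited values were log2 signals, and a difference below is a log2 difference, Fabp2KO minus WT, with its standard error (SE) from limma. A gene was called at an adjusted p under 0.2 and an absolute difference over 0.5, the thresholds of the study. The pool values of a genotype are given for the male replicates 1 and 2 and then the female replicates 1 and 2. The median signal of the arrays ranged over 6.57 to 6.62 on 430A and 5.89 to 5.92 on 430B, and precision is limited by the small number of arrays. The enterocyte markers Vil1, Alpi, Apoa1, Apoa4, Fabp1 and Lct had signals between 11.01 and 13.23 in all 8 pools, and none of the 12 enterocyte markers measured was called. On 100 probe sets shared by the chips, the arrays of 6 of the 8 pools matched their own partner best. The exceptions were Fabp2KO female replicate 1 and WT female replicate 2, and counts are also given without them.

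Fabp2 itself had signals of 9.20, 9.45, 9.20 and 9.03 in Fabp2KO pools, against 12.98, 13.05, 12.58 and 12.89 in WT pools. Every Fabp2KO pool lay below every WT pool. The difference was -3.65 (SE 0.09, adjusted p = 1.04e-12), or 12.6-fold, which left 7.95% of the WT signal, background hybridization included. Fabp1 had signals of 12.83, 12.66, 12.81 and 12.82 in Fabp2KO pools, against 12.71, 12.72, 12.68 and 12.59 in WT pools, and was not called (0.10, adjusted p = 0.781). Fabp6 differed by 0.07 (adjusted p = 0.929). Among the 13 lipid-binding proteins measured, Fabp4, the carrier of adipocytes and macrophages, was the one other call (0.74). No other carrier of enterocytes passed the thresholds in either direction.

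Of 18195 genes tested, 124 were called (0.682%), 38 higher (0.209%) and 86 lower (0.473%) in Fabp2KO. The pools of the genotypes did not overlap for 105 of these 124 genes, where the pools did not overlap for 7.75% of all genes tested (3.15% higher and 4.61% lower in Fabp2KO). An unadjusted p under 0.05 was reached by 2498 genes (13.7%). The median difference of all genes was 0.00, and the share of positive values among them was not counted. Within 200 genes on either side of Fabp2, 10 of 149 tested genes were called (6.71%), 2 higher and 8 lower, Fabp2 included. On the rest of chromosome 3, 21 of 764 were called (2.75%), 6 higher and 15 lower. Among all other genes, those of unknown chromosome included, 93 of 17282 were called (0.538%), 30 higher and 63 lower. Without Fabp2KO female replicate 1 and WT female replicate 2 together, 30 genes were called higher and 68 lower outside the neighbourhood of Fabp2, against 36 and 78 with all pools. Without Fabp2KO female replicate 2, the higher calls outside the neighbourhood numbered 76.

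**Figure D1:**
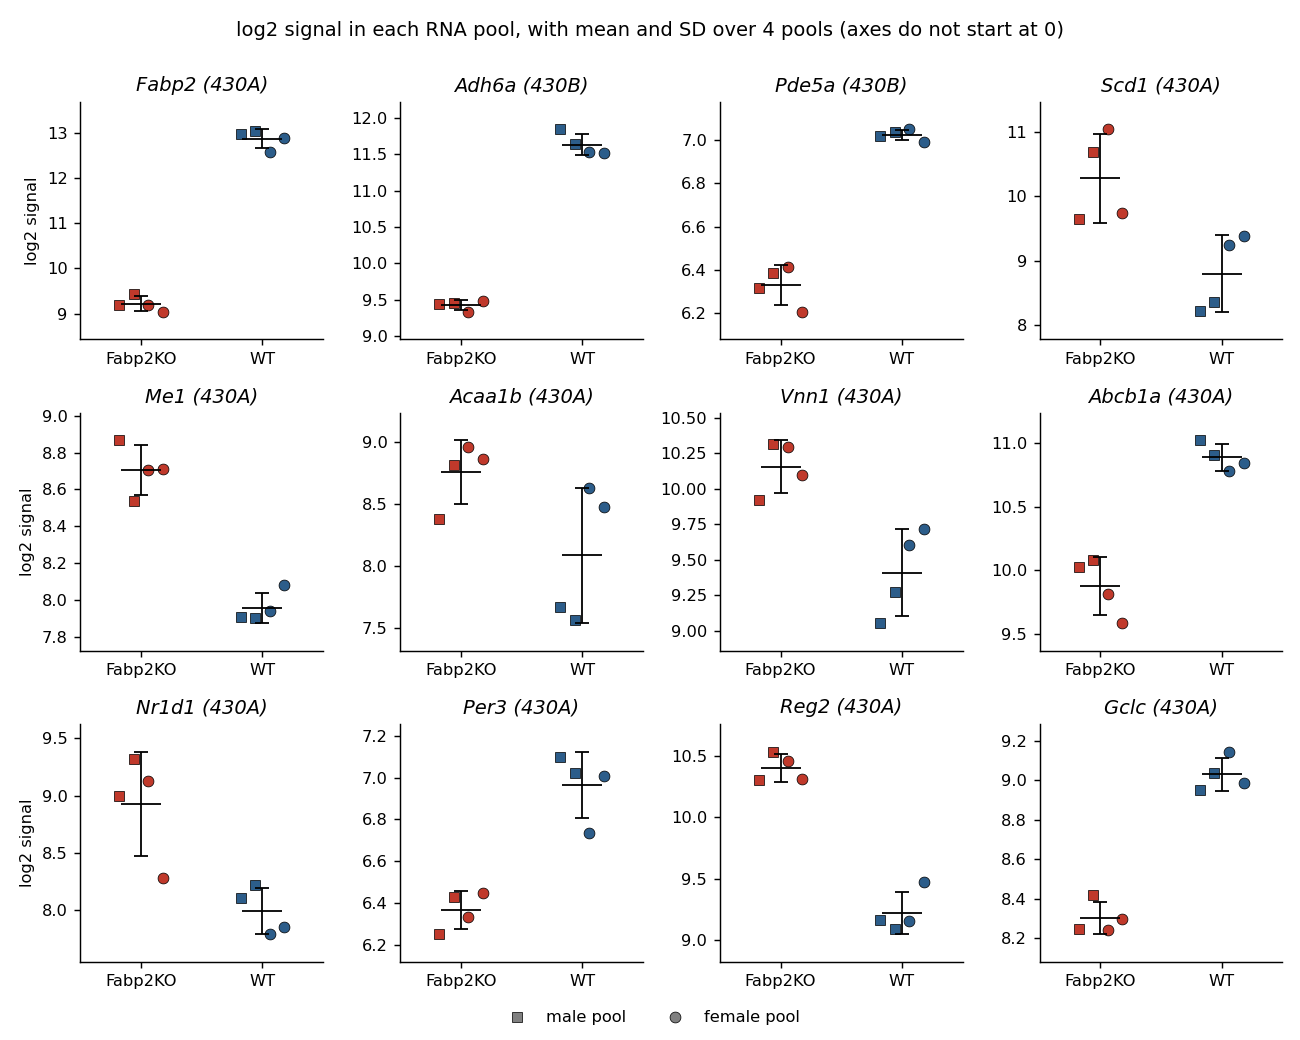
log2 signal in each pool for 12 genes, with Fabp2KO pools on the left and WT pools on the right of each panel (squares male, circles female; bars are the mean and SD of 4 pools). The groups do not overlap for Fabp2, Adh6a, Pde5a, Scd1, Me1, Vnn1, Abcb1a, Nr1d1, Per3, Reg2 and Gclc, and the Acaa1b signals of 1 Fabp2KO pool and the WT female pools overlap.

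Beside Fabp2 itself 9 of its neighbours were called, 7 lower and 2 higher. The nearest was Pde5a, the cyclic GMP-specific phosphodiesterase, 6 genes away. It had signals of 6.32, 6.39, 6.41 and 6.20 in Fabp2KO pools, against 7.02, 7.04, 7.05 and 6.99 in WT pools, a difference of -0.70 (SE 0.06, adjusted p = 3.3e-05). The pools of each genotype lay close together, with a gap between the genotypes. Fam241a, 63 genes away, had the largest fall among the neighbours, with 4.79, 4.56, 5.34 and 5.0 in Fabp2KO pools, against 6.04, 6.23, 6.07 and 6.47 in WT pools (-1.28, adjusted p = 3.3e-05). Gclm, 22 genes away, encodes the modifier subunit of glutamate-cysteine ligase, the first enzyme of glutathione synthesis. Its signals on 430B were 7.00, 7.21, 7.01 and 7.16 in Fabp2KO pools, against 7.79, 7.58, 7.67 and 7.77 in WT pools (-0.60, adjusted p = 0.000404). On 430A the same gene differed by -0.45, in non-overlapping pools, which is under the size limit of a call.

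Manba (168 genes away), which encodes lysosomal beta-mannosidase, differed by -0.61 and H2az1 (194 genes), a histone variant, by -0.58. Abcd3 (35 genes), a fatty acyl-CoA importer of the peroxisome membrane, differed by -0.52 on 430B and by -0.20 on 430A. Cfi (87 genes), complement factor I, differed by -0.50. The higher genes were Slc39a8 (172 genes), a zinc and manganese transporter, with 5.84, 5.89, 5.76 and 5.82 in Fabp2KO pools, against 4.50, 5.16, 5.12 and 5.16 in WT pools (0.84, adjusted p = 0.00143), and A930005H10Rik (122 genes), with 0.51. Abcd3 was not called without Fabp2KO female replicate 1 (-0.40) or WT male replicate 1 (-0.49). Cfi was not called without Fabp2KO male replicate 1 (-0.49), Fabp2KO female replicate 1 (-0.47), WT male replicate 2 (-0.48) or WT female replicate 1 (-0.47), and A930005H10Rik was not called without Fabp2KO male replicate 2 (0.499) or WT male replicate 2 (0.479).

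Several of these genes have more than 1 probe set, and their probe sets differed. Of the 10 called neighbours 7 had another probe set on the chips, and it was called in the same direction for 1 of them, Slc39a8. With the probe set of highest mean signal in place of the most variable one, Fam241a differed by -0.20, Pde5a by -0.20 and H2az1 by -0.22, none of them called. Over all 124 called genes, 77 had another probe set, which was called in the same direction for 25.

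On the rest of chromosome 3 the calls were most frequent at 201 to 600 genes from Fabp2 (13 of 280 tested, 4.64%), against 1.55% at 601 to 1200 genes and 1.77% at 1201 to 2000 genes. Adh6a, an alcohol dehydrogenase 212 genes away, had the largest difference after Fabp2 among genes whose pools did not overlap. Its signals were 9.45, 9.45, 9.33 and 9.48 in Fabp2KO pools, against 11.85, 11.64, 11.53 and 11.53 in WT pools (-2.21, SE 0.07, adjusted p = 1.27e-10). This fall of 4.62-fold was seen in both sexes. Next to each other 408 and 409 genes away lie Hsd3b3 and Hsd3b2, steroid dehydrogenases of near-identical sequence, whose signals on an array can be shared. Hsd3b3 had 5.83, 5.80, 6.00 and 5.69 in Fabp2KO pools, against 7.24, 7.40, 7.47 and 7.54 in WT pools on 430B (-1.58), and differed by -0.77 on 430A. Serpini2, a serpin of the exocrine pancreas 1101 genes away, differed by -1.16 (4.39, 4.81, 4.65 and 4.59 in Fabp2KO pools, against 5.55, 5.06, 6.18 and 6.30 in WT pools). Rises at these distances included Gbp2b, an interferon-inducible GTPase (0.88), Reg4, a secreted lectin of enteroendocrine and goblet cells (0.83), and Fabp4 (0.74). Gbp2, beside Gbp2b in the gene order at 256 and 255 genes, fell by 0.69, so that these neighbouring paralogs differed in opposite directions.

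**Figure D2:**
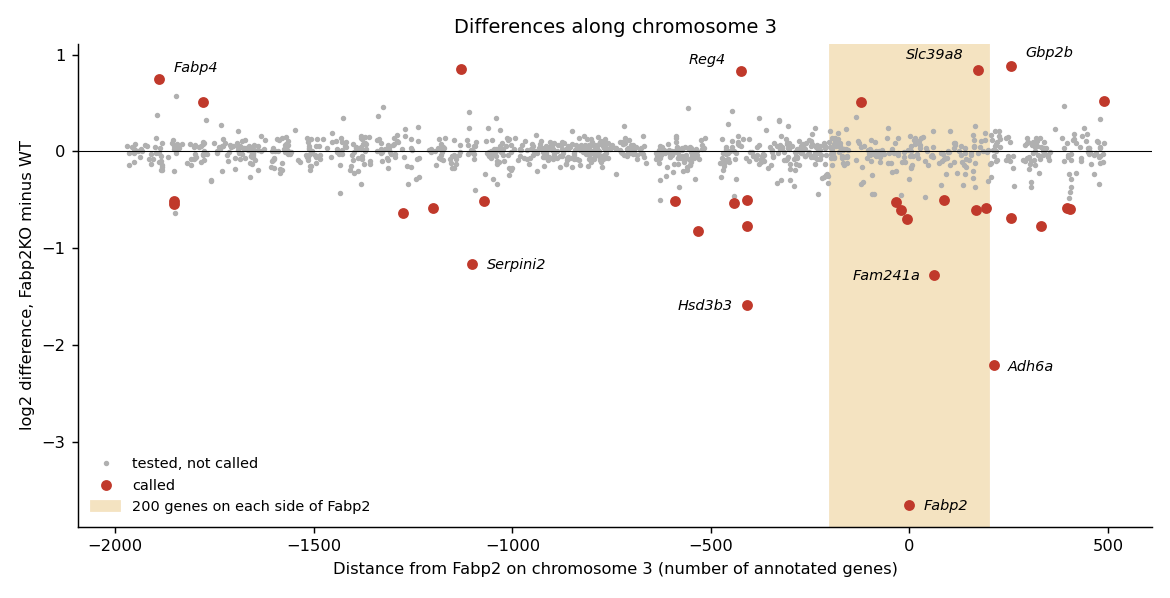
log2 difference, Fabp2KO minus WT, of the tested genes of chromosome 3 against their distance from Fabp2 in number of annotated genes; red points are called genes and the shaded band holds 200 genes on each side of Fabp2. The lowest points are Fabp2 (-3.65), Adh6a (-2.21), Hsd3b3 (-1.58) and Fam241a (-1.28).

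Among the other chromosomes, 9 and 11 had the largest shares of called genes, with 19 of 1002 (1.90%) and 18 of 1443 (1.25%). On chromosome 9, 14 genes were lower and 5 higher. With the genes of the chromosome divided by their order into 4 equal parts, 3 of 213 tested genes were called in the first (1.41%), 6 of 256 in the second (2.34%), 9 of 229 in the third (3.93%) and 1 of 304 in the last (0.329%). Pclaf, a PCNA-binding factor of replicating cells, had the largest fall on this chromosome, with 4.29, 3.80, 3.94 and 3.88 in Fabp2KO pools, against 5.82, 5.83, 5.48 and 5.57 in WT pools (-1.70, adjusted p = 1.03e-07). The probe set of highest mean signal for Pclaf on 430A differed by 0.00 and another on 430B by -0.08, neither of them called. St3gal4, a sialyltransferase, had 11.80, 11.36, 10.50 and 10.33 in Fabp2KO pools, against 12.10, 12.14, 11.86 and 11.79 in WT pools (-0.97, adjusted p = 0.00222), and its highest Fabp2KO pool lay within the WT range.

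**Figure D3:**
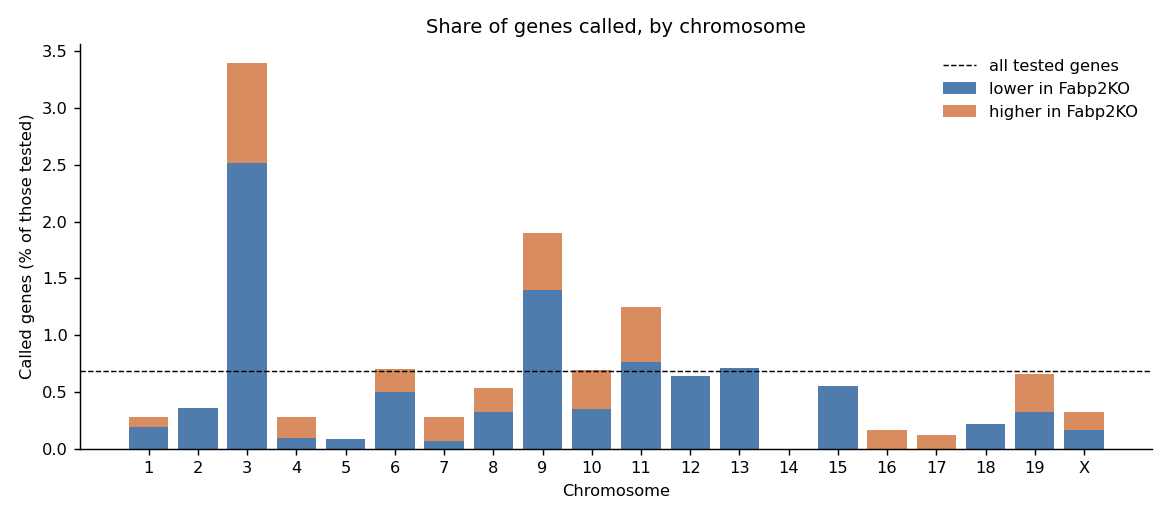
Share of tested genes called on each chromosome, with genes lower in Fabp2KO below and genes higher above in each bar; the dashed line is the share of all tested genes (0.682%). Chromosomes 3 (3.40%), 9 (1.90%) and 11 (1.25%) stand highest.

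Of 103 genes measured in 4 lists of fatty acid handling 5 were called (4.85%), 4 higher and 1 lower, where 0.682% of all genes were called. The lists were chosen with earlier results of these data known, so these shares are a description. Among the 5, Abcd3 is a neighbour of Fabp2, where 6.71% of genes were called. Me1 and Acaa1b are on chromosome 9, where 1.90% were called. None of 32 genes of fatty acid uptake and triglyceride resynthesis and none of 14 genes of chylomicron assembly was called, with medians of 0.01 in both lists where the median of all genes was 0.00. The values with the largest size in these lists, Cd36 (0.43, adjusted p = 0.259) and Pla2g1b, a pancreatic phospholipase (0.61, adjusted p = 0.58), did not pass. Dgat2 differed by -0.34 (adjusted p = 0.0247) and Apob on 430B by -0.45 (adjusted p = 0.0268). Both had non-overlapping pools and were under the size limit of a call. On 430A Apob differed by -0.001. Positive differences numbered 19 of 32 in the first list and 7 of 14 in the second. In fatty acid synthesis 2 of 19 genes rose, Scd1 and Me1. Scd1, the stearoyl-CoA desaturase that makes oleate, had 9.65, 10.69, 11.04 and 9.73 in Fabp2KO pools, against 8.22, 8.36, 9.24 and 9.39 in WT pools (1.47, SE 0.25, adjusted p = 0.00593). Me1, the cytosolic malic enzyme that supplies NADPH for lipid synthesis, had 8.87, 8.54, 8.70 and 8.71 in Fabp2KO pools, against 7.91, 7.90, 7.94 and 8.08 in WT pools (0.75, SE 0.08, adjusted p = 0.000145). Fasn, the fatty acid synthase, differed by 0.12 and Elovl6, an elongase, by -0.35 on the chip where it moved more, neither of them called.

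The list of fatty acid oxidation held 3 calls among 38 genes, with a median of 0.02. Vnn1 was counted among them, and among the 5 calls above, though it is not itself an enzyme of oxidation. Vnn1, a pantetheinase of the enterocyte surface that recycles the precursor of coenzyme A, had 9.92, 10.31, 10.29 and 10.10 in Fabp2KO pools, against 9.05, 9.27, 9.60 and 9.71 in WT pools (0.75, adjusted p = 0.00159), and rose on 430B too (0.62). Acaa1b, a peroxisomal 3-ketoacyl-CoA thiolase, had 8.38, 8.82, 8.96 and 8.86 in Fabp2KO pools, against 7.67, 7.56, 8.63 and 8.48 in WT pools (0.67, adjusted p = 0.00892). The WT values of Acaa1b were low in males and high in females, and its call was lost without sex in the fit (adjusted p = 0.225). Abcd3, described above, was the 1 fall. It was called on 430B (mean signal 5.27) but not by its brighter probe set on 430A (-0.20, mean signal 10.54). Me1, Vnn1, Acaa1b and Abcd3 are known targets of the fatty acid receptor PPAR alpha. Other members of the oxidation list that this receptor is known to control, such as Acot1 (0.38), Ehhadh (0.21), Cpt1a (0.15) and Cyp4a14 (-0.11), were not called.

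Fat markers moved with some of these values. Of 7 adipose markers measured 2 were called, Fabp4 and Lpl (0.52), against 0.682% of all genes, and all 7 had a positive difference. Their mean signal was 7.12, 7.48, 7.69 and 7.10 in Fabp2KO pools, against 6.94, 7.01, 7.02 and 6.99 in WT pools. Adipoq, the adiponectin of fat cells, had 7.24, 8.29, 8.44 and 7.16 in Fabp2KO pools, against 7.19, 7.29, 7.19 and 7.05 in WT pools. Adipoq, Fabp4 and Scd1 were thus all highest in Fabp2KO male replicate 2 and female replicate 1, and the part of fat in the Scd1 value was not tested. The Fabp4 call was lost without Fabp2KO female replicate 1 (0.496), without either male WT pool (0.76 and 0.74, adjusted p = 0.229 and 0.201) and likewise without either female WT pool (0.73 and 0.75, adjusted p = 0.218 and 0.222). Lpl was not called without Fabp2KO male replicate 2 (0.43), Fabp2KO female replicate 1 (0.31) or any 1 of the WT pools (0.46 to 0.58).

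**Figure D4:**
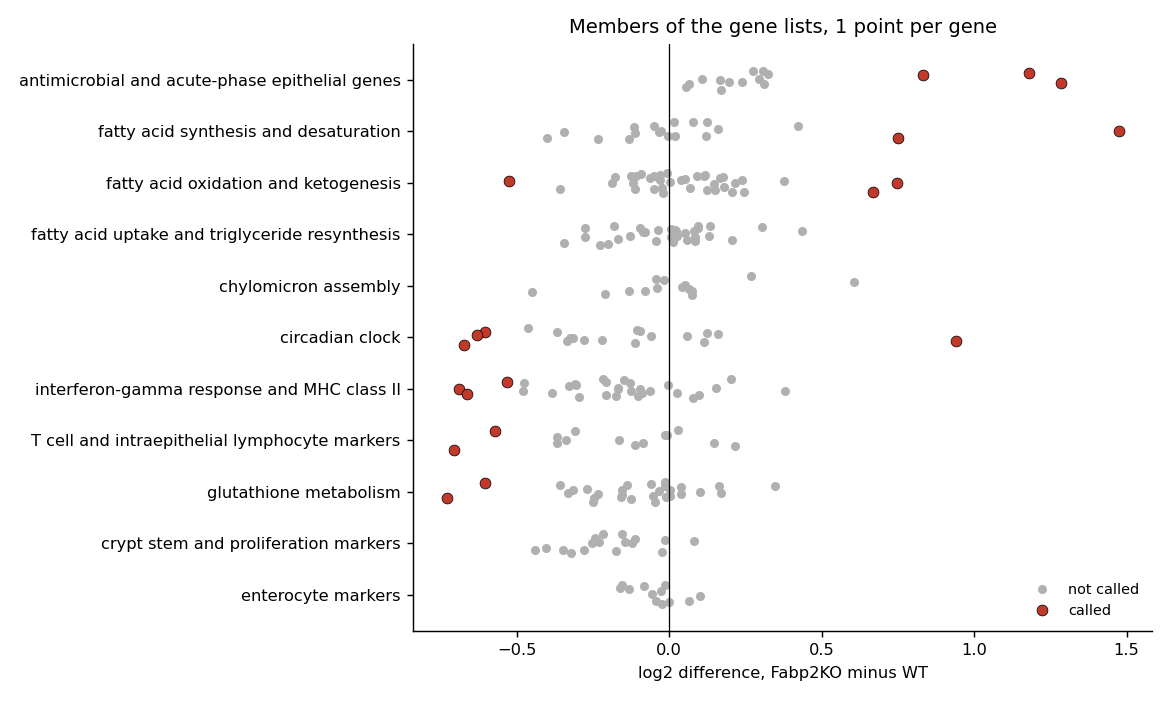
log2 difference, Fabp2KO minus WT, of the members of 11 gene lists, 1 point per gene (the chip with the smaller adjusted p where a gene was on both), with called genes in red. The 15 antimicrobial and acute-phase genes are all above 0, the enterocyte markers lie around 0, and Scd1 (1.47) is the highest point of the fatty acid synthesis list.

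None of 23 genes of cholesterol synthesis was called (median -0.06), and 8 had a positive difference. Sc5d on 430A differed by -0.49 (adjusted p = 0.0111) and Insig2 by 0.42 (adjusted p = 0.056), both under the size limit of a call. On 430B Sc5d differed by -0.12. In sterol transport 1 of 16 genes rose, Fgf15, the ileal hormone that lowers hepatic bile acid synthesis, with 6.03, 6.43, 6.02 and 6.47 in Fabp2KO pools, against 5.84, 5.55, 5.52 and 5.59 in WT pools (0.61, adjusted p = 0.00853). Among 11 ileum markers Fgf15 was the 1 call. In 29 genes of conjugation and efflux 1 fell and none rose. Abcb1a, the P-glycoprotein efflux pump, had 10.02, 10.08, 9.81 and 9.58 in Fabp2KO pools, against 11.02, 10.91, 10.78 and 10.84 in WT pools (-1.01, SE 0.08, adjusted p = 3.71e-06). Among 38 cytochromes P450 of families 1 to 4 the 1 call was Cyp2b10 (-0.50). Of 31 alcohol, aldehyde and retinoid dehydrogenases and related enzymes 4 fell, Adh6a, Hsd3b3, Hsd3b2 and Bco2, and 1 rose, Hsd17b2 (0.54), which was not called without Fabp2KO male replicate 2 (0.48) or WT male replicate 2 (0.44). Over all genes 0.473% were called lower and 0.209% higher. Adh6a, Hsd3b3 and Hsd3b2 are on chromosome 3. The difference of Hsd3b2, from a dim probe set (mean signal 4.70), lay just past the size limit (-0.50). Its call was lost without Fabp2KO male replicate 2, Fabp2KO female replicate 1 or either male WT pool. Bco2, a mitochondrial carotenoid-cleaving oxygenase, fell by 0.98. Outside the lists, Slc13a1, the renal and intestinal sulfate transporter, fell by 0.86 on 430A and by 0.59 on 430B. The 430B value became -0.49 without Fabp2KO female replicate 2. Scpep1, a serine carboxypeptidase, fell by 1.05.

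Both subunits of glutamate-cysteine ligase fell among 29 genes of glutathione metabolism, where 0.473% of all genes were called lower. Gclc, the catalytic subunit on chromosome 9, had 8.25, 8.42, 8.24 and 8.30 in Fabp2KO pools, against 8.95, 9.04, 9.15 and 8.99 in WT pools (-0.73, SE 0.07, adjusted p = 8.37e-05), beside Gclm (-0.60). The other 27 genes were not called, and the median of the list was -0.06. The 250 bases before the Gclm start (GRCm38.p6, RefSeq, plus strand) are shown because both subunits are known targets of the oxidant-responsive factor Nrf2, whose core motif TGACNNNGC was searched on both strands and is in capitals.
Gclm, chr3:122245307-122245556: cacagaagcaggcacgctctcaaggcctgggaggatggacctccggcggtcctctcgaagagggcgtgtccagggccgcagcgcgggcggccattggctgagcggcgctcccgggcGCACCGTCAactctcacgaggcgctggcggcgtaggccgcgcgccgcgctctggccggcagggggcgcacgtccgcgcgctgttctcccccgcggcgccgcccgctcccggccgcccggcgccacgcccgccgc
The match starts 134 bases before the gene start, and 10.2% of 32851 RefSeq promoters of this length hold the motif, so it is common. Of 25 genes of the glutathione list with a promoter in the table, 5 held it. These were Gclm and the uncalled Gsta3, Gstm5, Gstm7 and Mgst1. Gclc had no promoter in the table and was not searched.

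Clock genes gave 4 calls among 19 measured, 1 rise and 3 falls, with a median of -0.22 and 5 positive values. Over all genes 0.209% were called higher and 0.473% lower, with a median of 0.00. Nr1d1, the repressor REV-ERB alpha, had 9.0, 9.32, 9.12 and 8.28 in Fabp2KO pools, against 8.10, 8.22, 7.79 and 7.85 in WT pools (0.94, adjusted p = 0.00189). The falls were Per3, a period gene, Hlf, a PAR-domain factor, and Usp2, a deubiquitinase that follows the clock. Per3 had 6.25, 6.43, 6.33 and 6.45 in Fabp2KO pools, against 7.10, 7.02, 6.74 and 7.01 in WT pools (-0.60, adjusted p = 0.00143), and fell on 430B as well (-0.56). Hlf differed by -0.67 and Usp2 by -0.63, but with the probe set of highest mean signal they differed by -0.22 and -0.41 and were not called. Dbp, whose oscillation is large, ranged over 6.58 to 7.80 in Fabp2KO pools and 6.99 to 7.74 in WT pools. Arntl, the positive limb of the clock, differed by 0.14 on 430A. The time of day of tissue collection was not given in the sources used here. The 250 bases before the Per3 start (minus strand) are shown for their 2 D-boxes, the motif TTATGTAA bound by Dbp, Tef and Hlf, in capitals.
Per3, chr4:151044666-151044915: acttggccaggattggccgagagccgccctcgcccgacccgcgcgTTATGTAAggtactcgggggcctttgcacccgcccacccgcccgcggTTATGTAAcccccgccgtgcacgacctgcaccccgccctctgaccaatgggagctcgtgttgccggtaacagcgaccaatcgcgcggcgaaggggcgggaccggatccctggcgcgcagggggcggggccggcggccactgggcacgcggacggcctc
Of 17 clock genes with a promoter in the table, Per3 alone held a D-box, which 0.819% of all promoters hold. The E-box CACGTG stood in 5 of the 17, none of them called, and in 6.02% of all promoters.

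The called members of the lists of interferon-gamma-inducible genes and T cell markers were lower. Gbp2b, an interferon-inducible GTPase outside these lists, was called higher (0.88). Of 30 genes of the interferon-gamma response and MHC class II, 3 fell, Gbp2, Irgm2 and Igtp, and 6 had a positive difference (median -0.17). All 3 are GTPases that act on vacuoles of intracellular pathogens. Among all genes 0.473% were called lower. Igtp had 9.37, 9.01, 8.74 and 8.19 in Fabp2KO pools, against 9.55, 9.80, 9.05 and 9.03 in WT pools (-0.53, adjusted p = 0.0247), so that its genotypes overlapped. Irgm2 had 7.40, 6.90, 6.43 and 6.09 in Fabp2KO pools, against 7.52, 7.54, 7.01 and 7.40 in WT pools (-0.66, adjusted p = 0.0198). Gbp2 had 6.64, 6.56, 6.29 and 5.94 in Fabp2KO pools, against 7.15, 7.31, 6.92 and 6.81 in WT pools (-0.69, adjusted p = 0.00046). In all 3 genes Fabp2KO female replicate 2 was the lowest pool. The call of Igtp was lost without Fabp2KO male replicate 2 (-0.47), Fabp2KO female replicate 2 (-0.41) or WT male replicate 2 (-0.49), and those of Igtp and Irgm2 were lost without sex in the fit. None of 26 genes of the type I interferon response was called.

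The promoters of these 3 GTPases are shown (GRCm38.p6, RefSeq, plus strand, 250 bases before the start) because each holds the core GAAANNGAAA of the interferon-stimulated response element, searched on both strands and set in capitals.
Gbp2, chr3:142620413-142620662: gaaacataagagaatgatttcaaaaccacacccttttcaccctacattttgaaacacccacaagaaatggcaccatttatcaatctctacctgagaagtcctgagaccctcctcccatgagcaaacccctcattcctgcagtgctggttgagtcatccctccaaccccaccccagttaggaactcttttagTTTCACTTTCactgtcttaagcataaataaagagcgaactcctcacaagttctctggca
Irgm2, chr11:58214727-58214976: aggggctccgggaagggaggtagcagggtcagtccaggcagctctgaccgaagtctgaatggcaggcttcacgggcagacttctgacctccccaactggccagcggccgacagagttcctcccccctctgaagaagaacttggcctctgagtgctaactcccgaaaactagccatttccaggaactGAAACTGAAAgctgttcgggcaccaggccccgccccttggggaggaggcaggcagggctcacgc
Igtp, chr11:58199306-58199555: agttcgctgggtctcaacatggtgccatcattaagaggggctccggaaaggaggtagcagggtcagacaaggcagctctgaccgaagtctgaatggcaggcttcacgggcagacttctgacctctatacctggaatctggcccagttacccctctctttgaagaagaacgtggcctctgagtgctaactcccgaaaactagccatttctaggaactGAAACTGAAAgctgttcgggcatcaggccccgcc
The element was in 2.98% of all promoters and in 8 of the 23 listed genes with a promoter in the table, including 5 that were not called (Cxcl10, Gbp3, Gbp7, Irgm1 and Socs1). Irgm2 and Igtp, close paralogs, shared a run of 55 bases, while Gbp2 shared no run over 8 bases with either.

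Of 14 markers of T cells and intraepithelial lymphocytes 2 fell, where 0.473% of all genes were called lower. Positive differences in this list numbered 3 (median -0.14). Gzma, the granzyme A of cytotoxic lymphocytes, had 9.55, 9.89, 9.68 and 9.17 in Fabp2KO pools, against 10.43, 10.39, 10.07 and 10.21 in WT pools (-0.70, adjusted p = 0.00216). Ccl5, a chemokine of the same cells, had 9.40, 9.28, 9.42 and 8.81 in Fabp2KO pools, against 10.08, 9.93, 9.60 and 9.58 in WT pools (-0.57, adjusted p = 0.0124) and was not called without Fabp2KO female replicate 2 (-0.47). In whole tissue, fewer cells of a type and less RNA per cell cannot be told apart. The mean signal of the list was between 6.79 and 6.96 in Fabp2KO pools and between 7.01 and 7.20 in WT pools, while that of the enterocyte markers was between 11.45 and 11.51 in Fabp2KO pools and between 11.49 and 11.56 in WT pools. Of 13 B cell and plasma cell markers 1 was called, Ighm, while 11 had a positive difference (median 0.19). The mean signal of this list was 9.39, 8.66, 8.62 and 8.45 in Fabp2KO pools, against 8.72, 8.63, 8.68 and 8.61 in WT pools, so that Fabp2KO male replicate 1 stood above all others. Ighm, the heavy chain of IgM, differed by -1.13 (adjusted p = 0.0424), with 5.27, 5.06, 5.08 and 5.35 in Fabp2KO pools, against 7.17, 5.73, 5.59 and 6.79 in WT pools. Its call was lost without WT female replicate 2 (-0.92, adjusted p = 0.212). Of its 10 other probe sets 4 had a negative difference, 1 of them called, and they ranged over -0.81 to 0.21. Ms4a1, the B cell antigen CD20, was not called (0.54, adjusted p = 0.777) and stood at 9.19 in Fabp2KO male replicate 1, against 6.65 to 7.07 in the other 7 pools.

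Antimicrobial and acute-phase genes of the epithelium were higher where called. All 15 measured members had a positive difference, with a median of 0.27, and 3 rose, Reg2, Saa1 and Reg4. The share called higher over all genes was 0.209%. Reg2, a secreted lectin of the regenerating family, had 10.30, 10.53, 10.46 and 10.31 in Fabp2KO pools, against 9.17, 9.09, 9.15 and 9.47 in WT pools (1.18, SE 0.09, adjusted p = 3.71e-06). Saa1, serum amyloid A, had 6.71, 6.75, 6.33 and 6.56 in Fabp2KO pools, against 5.06, 6.32, 4.48 and 5.34 in WT pools (1.29, adjusted p = 0.00621), and WT male replicate 2 came closest to the Fabp2KO range. Reg4 had 10.26, 10.11, 10.38 and 10.53 in Fabp2KO pools, against 9.18, 9.36, 9.81 and 9.60 in WT pools (0.83). Socs3, an inducible inhibitor of STAT3 signalling, rose outside this list (0.77, adjusted p = 0.000373), but was not called with the probe set of highest mean signal (0.48) or in a fit of all 16 pools (0.77, adjusted p = 0.475). The mean signal of the 15 genes was between 8.06 and 8.18 in Fabp2KO pools and between 7.64 and 7.84 in WT pools. None of the Paneth cell markers (6 measured) and 1 of 10 goblet cell markers, Ccl6 (0.62), was called.

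None of 17 crypt and proliferation markers was called, but 15 of them had a negative difference, with a median of -0.22. Mcm5, of the replicative helicase, differed by -0.43 on 430A and -0.44 on 430B (adjusted p = 0.0814 and 0.0571), and Top2a, a topoisomerase of dividing cells, by -0.40 (adjusted p = 0.0124), all under the size limit of a call. The mean signal of the list ranged over 7.28 to 7.55 in Fabp2KO pools and 7.54 to 7.60 in WT pools.

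The largest rises of the comparison were those of 2 pancreatic digestive enzymes. Prss3, a trypsinogen, had 6.81, 8.40, 9.81 and 8.51 in Fabp2KO pools, against 5.38, 4.77, 7.12 and 6.55 in WT pools (2.43, SE 0.30, adjusted p = 0.000489). Ctrc, chymotrypsin C, had 9.95, 10.84, 7.73 and 8.34 in Fabp2KO pools, against 7.10, 6.74, 7.57 and 7.27 in WT pools (2.05, adjusted p = 0.0181). Of 20 acinar markers measured these were the 2 calls that rose, Serpini2 fell, and 19 had a positive difference (median 0.34). In either direction 0.682% of all genes were called. The mean signal of the list was 10.65, 11.46, 11.50 and 10.76 in Fabp2KO pools, against 10.46, 9.80, 11.19 and 11.09 in WT pools, and these ranges overlapped. The part of pancreatic RNA in the values of Prss3, Ctrc and Reg2 was not tested.

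The difference between genotypes depended on sex for 6 genes by the interaction test (0.033% of those tested, with 1038 genes, or 5.7%, at an unadjusted p under 0.05), 1 with the larger value in females (0.0055%) and 5 with the larger value in males (0.0275%). Cyp2c29 and Cyp2c55, cytochromes P450 of arachidonate metabolism, are both on chromosome 19. Cyp2c29 had 8.63 and 9.60 in male Fabp2KO pools, against 6.91 and 7.44 in male WT pools, and 9.26 and 9.42 in female Fabp2KO pools, against 9.57 and 9.46 in female WT pools. Cyp2c55 had 9.27 and 9.36 in male Fabp2KO pools, against 8.21 and 8.80 in male WT pools, and 8.68 and 8.63 in female Fabp2KO pools, against 9.65 and 9.40 in female WT pools. Both were higher in male and lower in female Fabp2KO pools than in WT pools of that sex. The differences between the sexes were -2.11 (adjusted p = 0.0337) and -1.68 (adjusted p = 0.00575), females minus males.

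Ces1g, a carboxylesterase, had 5.94 and 6.12 in male Fabp2KO pools, against 5.80 and 5.78 in male WT pools, and 6.05 and 6.01 in female Fabp2KO pools, against 6.71 and 6.52 in female WT pools (-0.82, adjusted p = 0.154). An immunoglobulin kappa variable gene (Entrez Gene 434025) had 10.68 and 10.26 in male Fabp2KO pools, against 9.86 and 10.12 in male WT pools, and 9.17 and 9.09 in female Fabp2KO pools, against 10.21 and 10.62 in female WT pools (-1.77, adjusted p = 0.00412). Erdr1, a gene of the pseudoautosomal region, had 9.10 and 9.20 in male Fabp2KO pools, against 8.93 and 8.84 in male WT pools, and 9.31 and 9.46 in female Fabp2KO pools, against 7.62 and 7.42 in female WT pools (1.61, adjusted p = 0.000515). The low female WT pools set this value apart. It came from 430A. On 430B, with Erdr1 means of 5.14 in Fabp2KO and 5.13 in WT pools, the interaction was 0.08 (adjusted p = 0.987). Ctrc rose by 3.47 in males and by 0.62 in females (-2.85, adjusted p = 0.00412). The count of 6 became 19 without Fabp2KO male replicate 1, 87 without Fabp2KO male replicate 2, 14 without Fabp2KO female replicate 1, 4 with WT male replicate 1 left out and 14 with WT female replicate 2 left out.

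The same change of genotype was examined in Fabp26KO against Fabp6KO pools, in which Fabp6 is disrupted on both sides. Per the methods, the Fabp26KO line came from crossing the Fabp2-/- and Fabp6-/- lines. The disrupted Fabp2 allele, with any DNA linked to it, thus came from the same line in both comparisons. Loss of Fabp2 and such DNA cannot be told apart in either comparison. Fabp6 signals were 4.91 to 5.04 in Fabp26KO pools and 4.80 to 4.91 in 3 of the Fabp6KO pools, but 9.21 in the library labelled Fabp6KO female replicate 2, so counts are also given without it. Fabp2 was between 8.98 and 9.98 in Fabp26KO pools and between 12.79 and 13.00 in Fabp6KO pools. In this comparison 220 genes were called (1.21%), 80 higher (0.44%) and 140 lower (0.769%). Of the 124 genes called in Fabp2KO against WT, 36 were called in the same direction and 6 in the opposite one, and 78 had the same sign (38 and 77 without the doubtful library, for calls and signs). By position, 4 of the 10 genes near Fabp2, 7 of the 21 on the rest of chromosome 3, 11 of the 19 on chromosome 9, 4 of the 18 on chromosome 11 and 14 of the 74 on all chromosomes other than 3 and 9 were called in the same direction. The same sign was held by 27 of the 31 on chromosome 3, 15 of the 19 on chromosome 9 and 36 of the 74 on the remaining chromosomes. Fabp2 itself, which is disrupted in both comparisons, is counted in the 124, the 36 calls in the same direction and the 10. It is also counted in the 78 genes of the same sign and in the 27 of chromosome 3. Without it, 3 of the 9 near genes were called in the same direction.

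**Figure D5:**
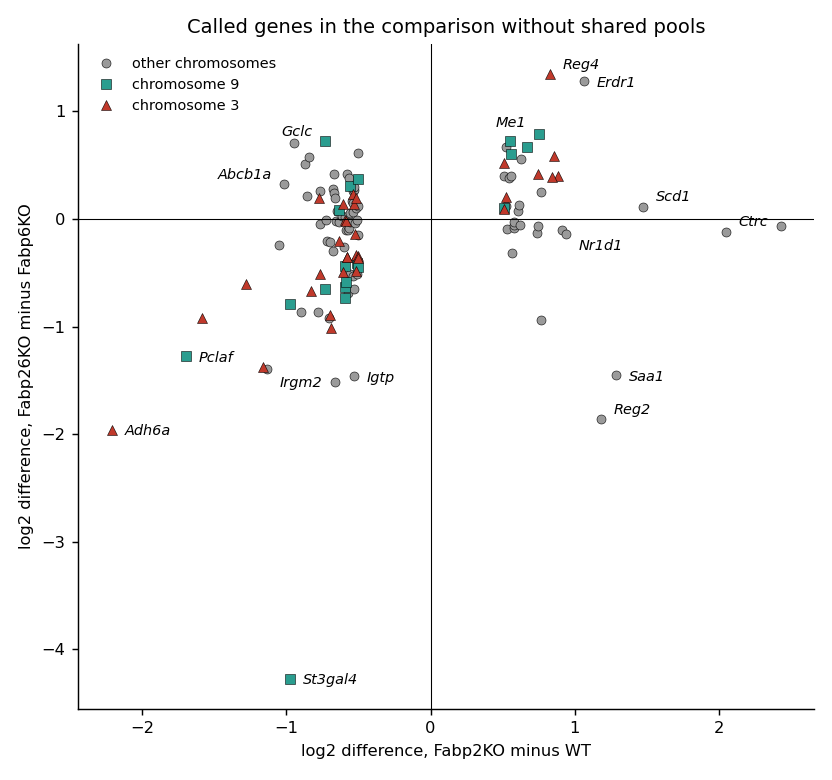
log2 difference in Fabp26KO against Fabp6KO pools over that in Fabp2KO against WT pools, for the genes called in Fabp2KO against WT other than Fabp2 (triangles chromosome 3, squares chromosome 9, circles other chromosomes). Adh6a, Pclaf, Me1 and Reg4 lie on the same side in both, Scd1, Ctrc and Nr1d1 lie near 0 on the vertical axis, and Reg2, Saa1 and Gclc lie on opposite sides.

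Adh6a had 9.81, 9.62, 9.56 and 9.91 in Fabp26KO pools, against 11.73, 11.53, 11.74 and 11.73 in Fabp6KO pools (-1.96), close to its difference in the first comparison. Pde5a differed by -0.89, Hsd3b3 on 430B by -0.92, Fam241a by -0.61 and Pclaf on 430A by -1.28. These values came from the same probe sets as in the first comparison. Pclaf on 430B differed by 0.03 and was not called. Further probe sets of Pde5a, Fam241a and Pclaf were not examined in these pools. St3gal4 had 6.63, 11.41, 6.72 and 6.41 in Fabp26KO pools, against 12.05, 12.15, 12.29 and 11.77 in Fabp6KO pools (-4.27, adjusted p = 0.00651), with 1 Fabp26KO pool, male replicate 2, near the Fabp6KO range. Me1 had 8.74, 8.76, 8.74 and 8.53 in Fabp26KO pools, against 7.63, 7.87, 8.02 and 8.09 in Fabp6KO pools (0.79, adjusted p = 0.000705), and Acaa1b differed by 0.67 (adjusted p = 0.04). Both are on chromosome 9. Reg4 rose by 1.35. The listed interferon-inducible genes called in the first comparison fell here too, Igtp by 1.46, Irgm2 by 1.51 and Gbp2 by 1.01, and Gzma fell by 0.92. Gbp2b, outside that list, differed by 0.40 (adjusted p = 0.00942), under the size limit of a call.

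Other leading genes were not called in this comparison or were called in the opposite direction. Scd1 differed by 0.11 (adjusted p = 0.818), Vnn1 on 430A by -0.06, Nr1d1 by -0.14, Per3 on 430A by -0.26, Abcb1a by 0.33, Prss3 by -0.06 and Ctrc by -0.12, none of them called. The 6 genes called in the opposite direction were Reg2, Saa1, Gclc, Nat8f5, Akr1c19 and Cyp2b10. Reg2 had 8.96, 7.68, 8.12 and 8.02 in Fabp26KO pools, against 11.58, 10.49, 8.56 and 9.60 in Fabp6KO pools (-1.86). Gclc had 9.37, 9.82, 9.41 and 9.40 in Fabp26KO pools, against 8.71, 8.76, 9.07 and 8.57 in Fabp6KO pools (0.72, adjusted p = 0.00437), while Gclm differed by 0.14 on 430B. Nat8f5, of a family of N-acetyltransferases, differed by 0.51, Akr1c19, an aldo-keto reductase, by 0.58, Cyp2b10, a P450 inducible by xenobiotics, by 0.62 and Saa1 by -1.45. The difference of the differences was not tested.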

How the data were processed

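RNA pools of whole small intestine were profiled on the Affymetrix chips 430A and 430B, 1 array of each per pool. Values came as log2 signals, deposited after the authors had background-corrected, quantile-normalized and summarized the scanned intensities with RMA, separately for 430A and 430B; its version is not given in the sources used here. The series matrix held the same values as these tables. Scanner files were not used.

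Genes were named through the platform annotation and Entrez identifiers of the RefSeq table of GRCm38.p6. Probe sets of several genes (691 on 430A, 245 on 430B) or none (1606 and 7656) were left out, and where a chip held several probe sets of a gene, that of largest interquartile range across 16 arrays was kept, which gave 12394 and 9612 tests of 18195 genes, 3811 of them on both chips and counted once. Chromosomes were known for 18030 genes. Genes within 200 places of Fabp2 in the RefSeq order (401 genes, 149 tested) formed its neighbourhood.

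For each chip, genotype and sex were terms of a linear model in limma 3.58.1 (lmFit and eBayes, R 4.3.3, two-sided), with Benjamini-Hochberg adjustment within the chip. The interaction used the means of the 4 genotype and sex groups. Replicate numbers do not pair the pools. P-values measure the spread between pools. The 36 gene lists, the members and the rule for named genes (the largest calls with non-overlapping pools, the Fabp genes and leading list members) were chosen with earlier results of these data known; St3gal4, Adipoq, Ms4a1, Akr1c19, Elovl6, Fasn, Dbp, Arntl and the other list members given as values were named after their values were seen. Alternatives were other probe sets, filters, scalings, covariates, weights, thresholds, a replicate block and omission of each pool.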

Additional observations from a re-analysis of the deposited data

Results flagged for a closer look

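The values below were searched for single pools that stand apart and for differences between the sexes, and no explanation was tested. Among 112 groups of 4 pools of the called genes named, Dixon's criterion marked 2, where chance alone marks about 1 in 20. Slc39a8 was at 4.50 in WT male replicate 1, where the other WT pools were between 5.12 and 5.16, and it was still called without that pool. Cyp2b10 was at 8.42 in Fabp2KO male replicate 1, where the other Fabp2KO pools were between 8.83 and 8.92, and its difference of -0.50 became -0.45 without that pool and was not called. That difference lay just past the size limit. Its call was also lost without either female Fabp2KO pool (-0.45 and -0.48) or either female WT pool (-0.47 and -0.45). The 2 other probe sets of Cyp2b10 were called (-0.54 and -0.62).

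The test of interaction marked 6 genes, whose differences between genotypes were compared as females minus males. The values were -2.85 for Ctrc, -2.11 for Cyp2c29, -1.77 for the immunoglobulin kappa variable gene (Entrez Gene 434025), -1.68 for Cyp2c55, -0.82 for Ces1g and 1.61 for Erdr1. All were from 430A, and on 430B the Erdr1 value was 0.08. The difference was 3.47 in males and 0.62 in females for Ctrc, 1.93 in males and -0.17 in females for Cyp2c29, and 0.81 in males and -0.87 in females for Cyp2c55. It was 0.48 in males and -1.29 in females for that immunoglobulin gene, 0.24 in males and -0.58 in females for Ces1g, and 0.26 in males and 1.87 in females for Erdr1.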

How the results depend on the processing

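The difference of Fabp2 was between -3.72 and -3.60 with each pool left out. Near Fabp2, the higher genes numbered 2 and the lower 8. They became 5 lower with the probe set of highest mean signal, 1 higher with a filter at a log2 signal of 6 in 4 arrays, 4 higher with array weights and 0 higher within 100 genes. With 1 pool left out, 1 to 4 were higher and 7 to 9 lower. Outside, the higher genes were 61 with array weights and 29 to 76 with 1 pool left out, against 36, and the lower 73 to 83, against 78. Genes with an interaction were 18 with an intensity trend and robust prior, 10 with the probe set of highest mean signal and 4 to 87 with 1 pool left out, against 6. The 36 calls shared with Fabp26KO against Fabp6KO, Fabp2 included, were 33 to 38 with 1 pool left out.

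Of 129 calls per gene and chip beside Fabp2, 76 held with every pool left out in turn, and 45 under every alternative other than an adjusted p under 0.05. The probe set of highest mean signal lost 24 and turned 1, Msi2 (0.58, then -0.0176). The intensity trend and robust prior lost 19, among them Scd1, Ctrc, Saa1, Erdr1, Bco2, Ighm, Irgm2, G6pc, Fabp4 and Lpl, at unchanged differences. Cyclic loess lost 8 and the fit without sex 12. The cause of these losses was not tested.

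Pools with the same replicate number did not deviate together (correlations of deviations from -0.26 to 0.05 in Fabp2KO and WT). A replicate block gave 37 higher and 78 lower genes outside the neighbourhood of Fabp2 and 6 genes with an interaction, and crossed numbers in males on 430A and in females on 430B gave 40 and 78. Neither lost a call. Precision is limited by 4 pools per genotype, and without detection calls a dim probe set cannot be told from background.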
